A study of Mus musculus with 9 samples.

Results

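Glycolysis splits glucose into pyruvate through a chain of cytosolic enzymes and yields ATP without oxygen. Most steps can be catalysed by several isoenzymes encoded by separate genes, and tissues differ in which isoenzyme they use. T cells that are activated through their receptor take up more glucose and send more pyruvate to lactate, whereas most thymocytes past the double-positive stage are small and cycle little. The 10 genes described here are Slc2a1 and Slc2a3 (glucose transporters), Hk1 and Hk2 (hexokinases), Pfkp (phosphofructokinase), Aldoa (aldolase), Eno1 and Eno3 (enolases), Pkm (pyruvate kinase) and Ldha (lactate dehydrogenase). They were taken by symbol from a table of 24594 genes, and all 10 were present. The list was chosen by function with the RPKM differences between the groups of these libraries already known, those of Eno3 among them, so the members' values are a description. Where a member is said to be called in the fit over all genes, that only places it among those genes and is no test of it.

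RNA was sequenced in bulk from semimature CD4 single-positive thymocytes (CD4+CD8-CD69+, Vα2+Vβ5+) that carry the OT-II T cell receptor, a transgenic receptor for a peptide of ovalbumin. The cells were sorted from mixed bone marrow chimeras 4.7 weeks after irradiated hosts received OT-II control marrow, OT-II marrow lacking Nr4a1 and Nr4a3 (DKO) and non-transgenic wild-type marrow together. The control donors (ctl) were F1 mice of BoyJ and B6.Cg-Tg(TcraTcrb)425Cbn/J with intact Nr4a1 and Nr4a3, and the DKO donors were Nr4a1-/- Nr4a3-/- mice labelled C57BL/6, so donor background differed along with genotype. WT hosts were labelled BoyJ, whereas the study's methods describe WT hosts as F1 mice from the cross that gave the RIPmOVA hosts, so by the labels host background differed along with the transgene. RIPmOVA hosts were F1 mice of BoyJ and a C57BL/6 line (WehiJ) with the transgene Tg(Ins2-TFRC/OVA)296Wehi, in which the rat insulin promoter drives membrane-bound ovalbumin, made in the thymus by radioresistant medullary epithelial cells. There were n = 2 ctl libraries and n = 3 DKO libraries from WT hosts, and n = 2 of each genotype from RIPmOVA hosts. Libraries of the 2 genotypes with the same number and host came from 1 chimera, and the ages of the mice were not given per library.

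The libraries held 15520000 to 25060000 reads on exons, as recovered from the values. Reads from Nr4a1 and Nr4a3 were not lower under the DKO label. Nr4a1 was 245 ± 21.9 RPKM (SD, n = 2) in RIPmOVA-host ctl and 258 ± 33.5 RPKM (SD, n = 2) in RIPmOVA-host DKO-labelled libraries, and Nr4a3 was 4.69 ± 1.38 and 15.3 ± 1.70 RPKM (SD, n = 2 each). Gene-level values therefore do not check the label, on which each direction between genotypes depends. T cell markers were abundant in all libraries, with Cd4 at 189 to 241 RPKM and Cd3e at 234 to 303 RPKM. Of the CD8 chains, which the sort gated against, Cd8a was at 1.76 to 7.60 RPKM but Cd8b1 at 54.5 to 96.4 RPKM. The summed RPKM of sensory receptor genes, which thymocytes are not known to use, was 439 and 133 in WT-host ctl and 165, 453 and 115 in WT-host DKO-labelled libraries, and 204 and 74.6 in RIPmOVA-host ctl and 483 and 649 in RIPmOVA-host DKO-labelled libraries.

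Of the 9 members kept by the filter on low values, Eno3 had the largest log2 difference in each of the 5 comparisons made. It encodes beta-enolase, the muscle form of the enzyme that makes phosphoenolpyruvate. Mouse Eno3 (Entrez 13808, ENSMUSG00000060600) is a protein-coding gene on the plus strand of chromosome 11 from 70657202 to 70662513 (GRCm38), and no annotated gene overlaps it. Its promoter is shown because the groups differ by label in Nr4a1 and Nr4a3, whose proteins bind as monomers to the NBRE motif AAAGGTCA, an extension of the nuclear receptor half-site AGGTCA. The window covers 250 bases before the RefSeq start and 50 after it (RefSeq, GRCm38.p6, chr11:70656926-70657225, plus strand), and capitals mark the half-site.
Eno3: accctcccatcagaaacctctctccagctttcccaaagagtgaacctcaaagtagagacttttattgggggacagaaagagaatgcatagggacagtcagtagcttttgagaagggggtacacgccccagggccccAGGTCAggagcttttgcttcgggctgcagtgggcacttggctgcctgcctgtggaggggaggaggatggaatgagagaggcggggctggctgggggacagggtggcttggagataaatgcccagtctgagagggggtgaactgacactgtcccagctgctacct
The Eno1 window that follows is the one of 3 for this gene with a match (chr4:150236458-150236757, plus strand), and it is shown to set the 2 enolases side by side.
Eno1: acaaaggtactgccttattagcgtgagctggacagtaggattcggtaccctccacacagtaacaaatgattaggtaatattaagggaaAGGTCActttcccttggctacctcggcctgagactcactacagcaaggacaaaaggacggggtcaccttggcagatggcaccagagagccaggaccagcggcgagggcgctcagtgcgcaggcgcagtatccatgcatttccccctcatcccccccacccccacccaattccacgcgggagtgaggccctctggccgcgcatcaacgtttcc

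On either strand, the Eno3 window held 1 AGGTCA and no AAAGGTCA, and the Eno1 window held 1 AAAGGTCA, whose last 6 bases are the AGGTCA in capitals. Of 32851 promoter windows of this length, 16.3% held AGGTCA and 1.51% held AAAGGTCA. ACGTG, the core of the site for hypoxia-inducible factor (HIF), was in 19.6% of all windows, and the E-box CACGTG, which contains ACGTG, in 7.15%. The 9 members in the promoter table had 16 windows. Of these, 5 held AGGTCA (4 members), 1 held AAAGGTCA, 7 held ACGTG (6 members) and 1 held CACGTG. Overlapping windows of Aldoa held the same AGGTCA and the same ACGTG, so windows of a gene are not independent. The window with CACGTG was one of Ldha's, which held it at 2 positions. The matches are letters in a window, and no binding was measured here.

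Eno3 was at 4.10 and 5.22 RPKM in WT-host ctl libraries, and at 23.9 and 16.7 RPKM in RIPmOVA-host ctl libraries. RPKM is the number of reads scaled to exon length and to library depth. Under the DKO label it was at 3.00, 2.60 and 2.82 RPKM in WT hosts, and at 1.48 and 2.08 RPKM in RIPmOVA hosts. Both RIPmOVA-host ctl libraries stood above all other libraries, and no 2 of the 4 groups overlapped. In WT hosts the means were 4.66 ± 0.795 RPKM (SD, n = 2) in ctl and 2.81 ± 0.20 RPKM (SD, n = 3) under the DKO label. The means were 20.3 ± 5.13 and 1.78 ± 0.424 RPKM (SD, n = 2 each) in RIPmOVA hosts. The ctl mean was 11.4 times the DKO-labelled mean in RIPmOVA hosts, and 4.36 times the ctl mean in WT hosts. The values rested on 95 to 1270 reads per library, with the fewest in a DKO-labelled library from a RIPmOVA host.

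**Figure D1:**
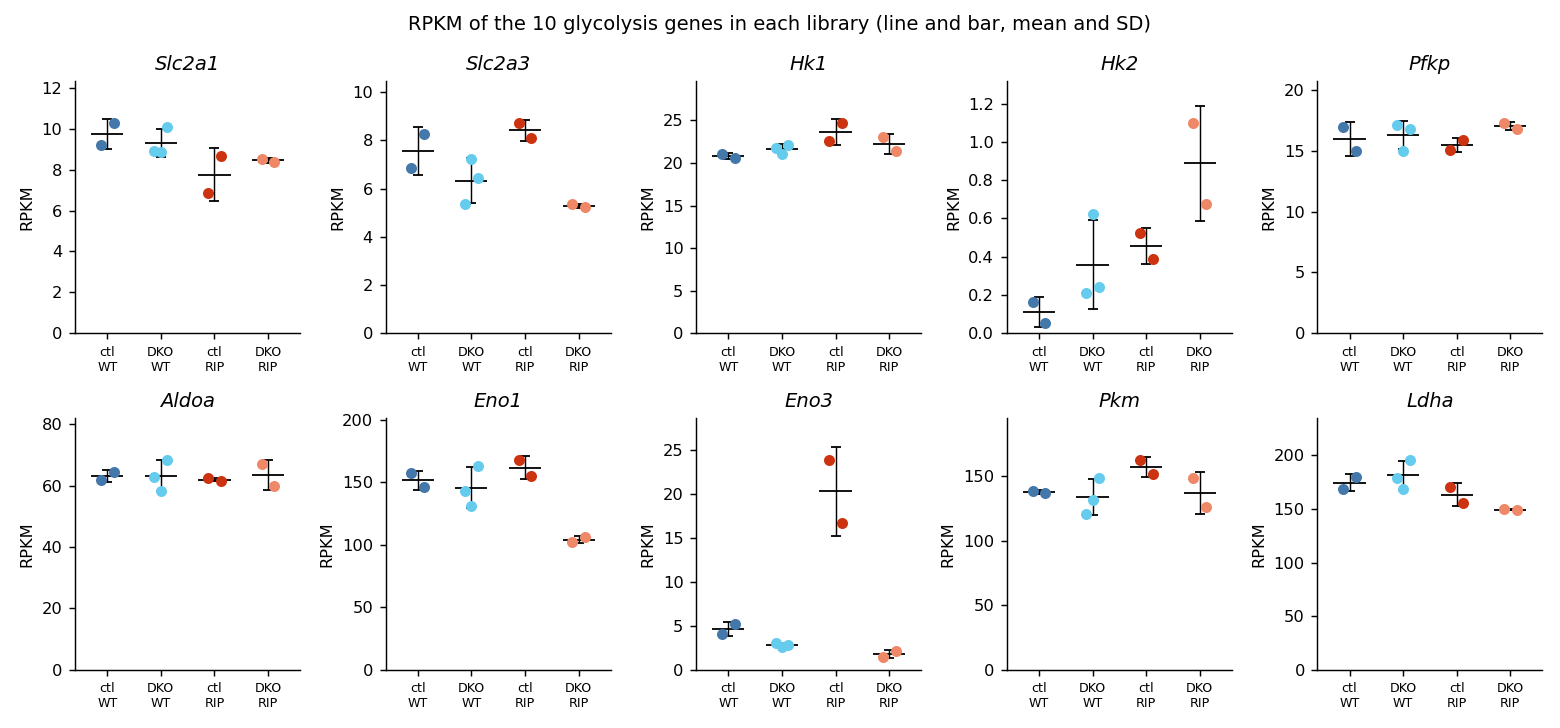
RPKM (vertical axes, from 0) of each of the 10 glycolysis genes in every library, by donor genotype and host, with the mean and SD of each group as a line and a bar. Eno3 sits at 16.7 and 23.9 RPKM in RIPmOVA-host ctl libraries and at no more than 5.22 RPKM in any other library.

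On the scale of log2(RPKM + 0.5), Eno3 was higher by 2.00 (SE 0.20) in RIPmOVA than in WT hosts among ctl libraries. Among DKO-labelled libraries the same difference was -0.55 (SE 0.18). The DKO-labelled libraries differed from the ctl libraries by -3.18 (SE 0.20) in RIPmOVA hosts and by -0.64 (SE 0.18) in WT hosts. The host effect under the DKO label minus that in ctl, the interaction, was -2.55 (SE 0.27). These comparisons share libraries, so they are not independent of each other. The offset of 0.5 understates differences of genes as low as Eno3 was in 3 of the groups.

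A call required a limma adjusted p no greater than 0.05 together with an absolute log2 difference of at least 1. The members were chosen with these contrasts known, so nothing is read from their calls or counts, which are given beside those of all genes as a description. Of the 9 members kept by the filter on low values, Eno3 was the 1 called for the host effect in ctl, where 1.23% of all 11569 genes tested were called. It was also the 1 member called between genotypes in RIPmOVA hosts, where 1.07% of all genes were called, and in the interaction, where 0.0173% were. For the host effect under the DKO label 0 members were called (1.68% of all genes), and likewise 0 between genotypes in WT hosts (0.0605%). At an unadjusted p under 0.05, 3 members passed for the former, where 17.6% of all genes did, and 1 for the latter, where 7.89% did. Limma with voom on recovered reads called 0 members in both, against 243 and 6 of all genes. The interaction call of Eno3 was present under 7 of 21 alternatives. It was lost with the chimera as a block, at a difference of -2.54 (SE 0.34), and on leaving out any 1 library other than the second ctl library from WT hosts or the second DKO-labelled library from RIPmOVA hosts. In the fit to the compared libraries alone, the host effect in ctl was not called (0 members).

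The 10 genes covered a wide range of levels per length. Ldha had the highest mean over the 9 libraries at 169 RPKM, with Eno1 and Pkm both at 141 RPKM. Aldoa followed at 62.9 RPKM, Hk1 at 22.0 RPKM and Pfkp at 16.2 RPKM. Slc2a1, Eno3 and Slc2a3 had means of 8.88, 6.88 and 6.83 RPKM, and Hk2 was lowest at 0.443 RPKM. Ldha was above Pkm in every group mean, but the ranges of Ldha, Eno1 and Pkm over libraries overlapped. Eno3 spanned a 16.2-fold range between libraries and Hk2 a 20.0-fold range at far fewer reads, while the other 8 genes spanned 1.16-fold (Pfkp) to 1.67-fold (Slc2a3).

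The transporters came first in the pathway. Slc2a1 encodes GLUT1, the main glucose transporter of activated T cells. It was at 9.23 and 10.3 RPKM in WT-host ctl libraries, at 8.94, 8.89 and 10.1 RPKM in WT-host DKO-labelled libraries, at 6.85 and 8.68 RPKM in RIPmOVA-host ctl libraries and at 8.55 and 8.38 RPKM in DKO-labelled ones. Both RIPmOVA groups lay below the WT-host group of their genotype without overlap, with log2 differences of -0.32 (SE 0.13) in ctl and -0.13 (SE 0.12) under the DKO label.

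Slc2a3 encodes GLUT3, a transporter with high affinity for glucose. It was at 6.84 and 8.25 RPKM in WT-host ctl and at 5.35, 7.23 and 6.42 RPKM in WT-host DKO-labelled libraries, and at 8.72 and 8.10 RPKM in RIPmOVA-host ctl and 5.34 and 5.23 RPKM in RIPmOVA-host DKO-labelled libraries. In RIPmOVA hosts the genotypes did not overlap and the DKO-labelled mean was 0.629 of the ctl mean, a log2 difference of -0.62 (SE 0.15). Its share of the summed RPKM of Slc2a1 and Slc2a3 was 52.1 ± 5.49% (SD, n = 2) in RIPmOVA-host ctl libraries against 38.4% to 43.5% on average in the other groups.

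Hexokinases trap glucose in the cell as glucose 6-phosphate. Hk1, the form found in most tissues, was at 21.1 and 20.6 RPKM in WT-host ctl and 21.8, 21.0 and 22.1 RPKM in WT-host DKO-labelled libraries, and at 22.6 and 24.7 RPKM in RIPmOVA-host ctl and 23.1 and 21.4 RPKM in RIPmOVA-host DKO-labelled libraries. Hk1 made up 92.7% to 98.2% of the summed RPKM of Hk1, Hk2, Hk3 and Hkdc1. Hk2, the form induced in activated and growing cells, was at 0.165 and 0.0550 RPKM in WT-host ctl and 0.209, 0.625 and 0.242 RPKM in WT-host DKO-labelled libraries, and at 0.523 and 0.389 RPKM in RIPmOVA-host ctl and 1.10 and 0.677 RPKM in RIPmOVA-host DKO-labelled libraries. These values came from 8 to 141 reads, so Hk2 did not pass the filter. None of the 4 pairs of groups compared overlapped for Hk2. The shares of all genes without overlap cover only genes kept by the filter, so none applies to Hk2 and nothing is read from this. The 3 libraries with the highest Hk2 were also the 3 with the highest sensory receptor sums, whereas the first ctl library from WT hosts had a high sum of 439 RPKM at 0.165 RPKM of Hk2, and the part of that signal in the Hk2 values was not tested. Fitted without a filter, the log2 differences of Hk2 were 0.65 (SE 0.30) for the host effect in ctl and 0.71 (SE 0.27) under the DKO label.

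Phosphofructokinase sets the pace of the pathway. Pfkp was at 15.0 to 17.3 RPKM in the 9 libraries, and Aldoa, which cleaves fructose 1,6-bisphosphate, at 58.3 to 68.4 RPKM. Neither differed by more than 0.14 on the log2 scale in any comparison. Pfkp shared its step with Pfkl and Pfkm, and made up 36.6% to 44.1% of their sum. Pfkm, the muscle form, took 29.9% and 31.4% of the sum in RIPmOVA-host ctl libraries and 18.2% to 27.4% elsewhere. Its difference between genotypes in RIPmOVA hosts was -0.54 (SE 0.12, limma adjusted p = 0.054) and missed the adjusted threshold. In WT hosts Pfkm was also lower under the DKO label without overlap, as 10.3% of all genes were. It was at 7.29, 8.82 and 8.27 RPKM there against 9.82 and 11.0 RPKM in WT-host ctl libraries. Aldoa was 98.3% to 99.7% of aldolase RPKM.

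Eno1, the enolase of most tissues, held most of the enolase reads. It was at 157 and 146 RPKM in WT-host ctl and 143, 131 and 163 RPKM in WT-host DKO-labelled libraries, and at 168 and 155 RPKM in RIPmOVA-host ctl and 102 and 106 RPKM in RIPmOVA-host DKO-labelled libraries. The 2 RIPmOVA-host DKO-labelled libraries were the lowest of all 9. The mean there was 104 ± 3.45 RPKM (SD, n = 2) against 162 ± 9.23 RPKM (SD, n = 2) in ctl, a log2 difference of -0.63 (SE 0.11), and the host effect under the DKO label was -0.48 (SE 0.10). Under median-of-ratios scaling, the differences were -0.87 and -0.65, with the median of all genes in these comparisons at -0.17 and -0.13 in place of 0.04 and 0.03. Of the 100-base windows of Eno1 transcripts, 20.4% also occur in transcripts of other genes, above all Eno1b, so its reads may be split between copies. Eno1b itself was listed at 19.2 and 20.4 RPKM in the RIPmOVA-host DKO-labelled libraries and at 24.2 to 29.9 RPKM in the other libraries. No 100-base window of Eno3 was shared with another gene.

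Eno3 made up 12.4% and 9.68% of the summed RPKM of Eno1, Eno2 and Eno3 in RIPmOVA-host ctl libraries. Its share was 2.53% and 3.43% in WT-host ctl and 2.05%, 1.94% and 1.69% in WT-host DKO-labelled libraries, and 1.41% and 1.89% in RIPmOVA-host DKO-labelled libraries. The mean shares were 11.0 ± 1.92% (SD, n = 2), 2.98 ± 0.640% (SD, n = 2), 1.89 ± 0.184% (SD, n = 3) and 1.65 ± 0.339% (SD, n = 2) for these groups in turn. With Eno1b in the sum, the share was 10.7% and 8.30% in RIPmOVA-host ctl libraries and 1.19% to 2.92% in the rest. Eno2, the neuronal enolase, was 1.42% and 1.16% in RIPmOVA-host DKO-labelled libraries and 0.350% to 0.510% in all others. Eno2 was at 1.48 and 1.27 RPKM there and at 0.566 to 0.985 RPKM in the other libraries. It therefore passed the filter only through the group where it was high, and its p-value and calls are no test of it. Its host effect under the DKO label was 0.70 (SE 0.26, limma adjusted p = 0.21), which limma did not call, whereas voom on recovered reads called it.

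**Figure D2:**
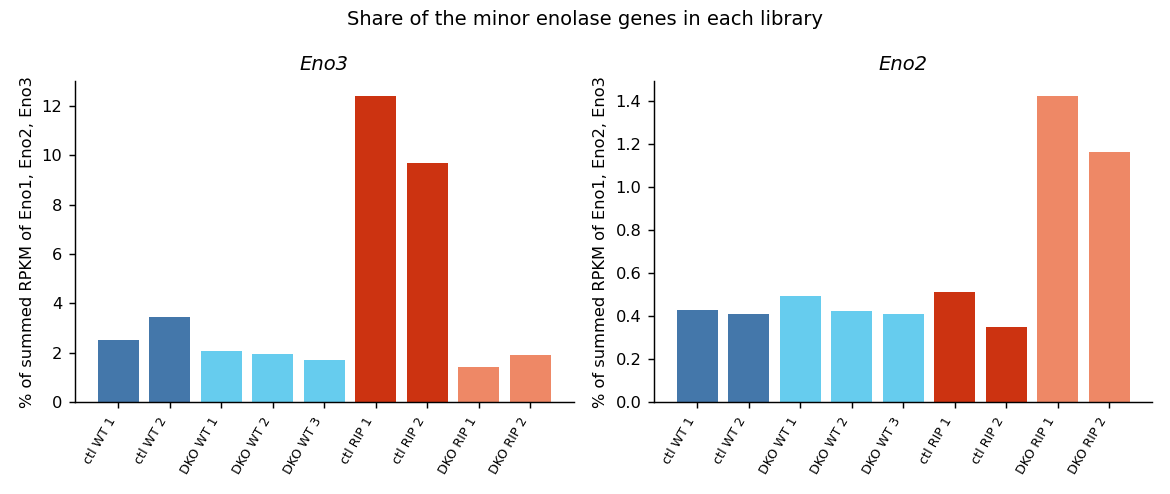
Percent of the summed RPKM of Eno1, Eno2 and Eno3 (vertical axes, from 0) taken by Eno3 (left) and by Eno2 (right) in each library. Eno3 reaches 12.4% and 9.68% in RIPmOVA-host ctl libraries, and Eno2 reaches 1.42% and 1.16% in DKO-labelled ones.

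The last steps varied little. Pkm, the pyruvate kinase of most tissues, was at 139 and 137 RPKM in WT-host ctl and 121, 132 and 149 RPKM in WT-host DKO-labelled libraries, and at 163 and 152 RPKM in RIPmOVA-host ctl and 149 and 126 RPKM in RIPmOVA-host DKO-labelled libraries. RIPmOVA-host ctl libraries were the highest, by 0.19 (SE 0.12) over WT-host ctl libraries. Ldha, which turns pyruvate into lactate, was at 169 and 180 RPKM in WT-host ctl and 179, 169 and 196 RPKM in WT-host DKO-labelled libraries, and at 171 and 156 RPKM in RIPmOVA-host ctl and 150 and 149 RPKM in RIPmOVA-host DKO-labelled libraries. Its host effect under the DKO label was -0.27 (SE 0.09). Ldha took 60.4% to 70.4% of lactate dehydrogenase RPKM and Ldhb, the form that favours pyruvate, nearly all of the rest. Pkm was at least 99.7% of pyruvate kinase RPKM, the remainder being Pklr.

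Aside from Eno3, the 8 other members kept had median log2 differences of 0.03 for the host effect in ctl, -0.06 under the DKO label, -0.11 between genotypes for RIPmOVA hosts and -0.03 for WT hosts. Over all genes tested the medians were -0.02, 0.03, 0.04 and 0.01. Between genotypes in RIPmOVA hosts 4 of the 8 (Slc2a3, Eno1, Pkm and Ldha) were lower under the DKO label without overlap, where 24.4% of all genes were, and 1 (Pfkp, which was below 0 under median-of-ratios scaling) was higher, where 34.6% were. For the host effect under the DKO label 4 of the 8 were lower without overlap (17.3% of all genes) and 0 were higher (22.7%). In ctl 2 were higher (19.4%) and 1 was lower (22.1%). Between genotypes in WT hosts 0 of the 8 were higher (10.5% of all genes) or lower (10.3%) without overlap. On adjusted p alone, Eno1 passed for the host effect under the DKO label, as 3.35% of all genes did, and between genotypes in RIPmOVA hosts, as 2.21% did.

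**Figure D3:**
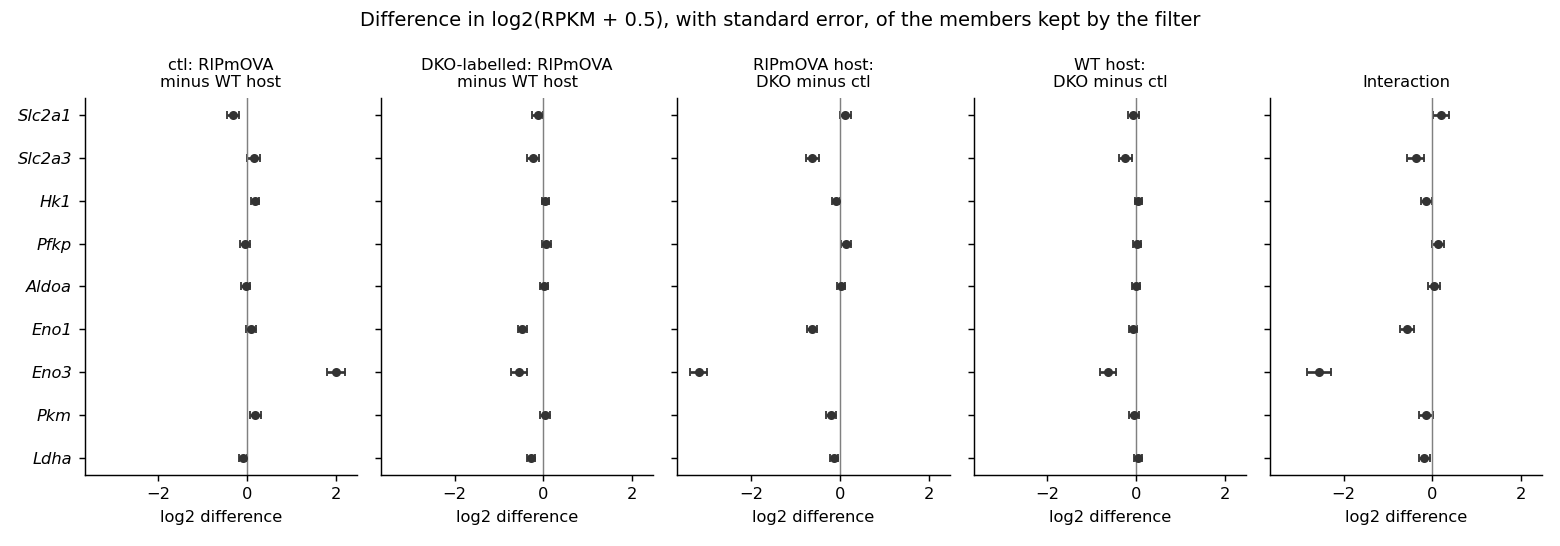
Differences in log2(RPKM + 0.5) (horizontal axes) with their standard errors for the 9 members kept by the filter in the 4 pairwise comparisons and the interaction. Eno3 lies at 2.00, -3.18 and -2.55 in the panels for the host effect in ctl, for genotype in RIPmOVA hosts and for the interaction, and the other 8 genes stay between -0.63 and 0.19 in all panels.

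The other genes of glucose metabolism were tested. The list held 76 genes in the table, of which 51 passed the filter. They were 14 other glycolytic enzymes, 7 transporters of sugars, lactate or pyruvate, 11 genes that control flux into glycolysis or pyruvate oxidation, 10 genes of the HIF and glucose-sensing systems, 2 of gluconeogenesis and 7 of the pentose phosphate route. Of the 51, 0 were called for the host effect in ctl and 10 passed an unadjusted p of 0.05, which was 19.6% of them against 14.3% of all genes. Their median log2 difference was 0.07, against -0.02 over all genes. For the host effect under the DKO label 1 was called and 13 passed an unadjusted p of 0.05 (25.5% against 17.6% of all genes). Between genotypes 0 were called in RIPmOVA hosts, with 10 at an unadjusted p under 0.05 (19.6% against 21.4%), and 0 in WT hosts, with 4 (7.84% against 7.89%). In the interaction 0 were called, with 3 at an unadjusted p under 0.05 (5.88% against 9.32%). Voom on recovered reads called 2 (Egln3 and Eno2) for the host effect under the DKO label and 0 in the other 4 comparisons. Eno2 and Slc16a3 passed the filter only through the group where each was high. Their part in these counts is therefore no test of them.

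The gene called was Egln3, a prolyl hydroxylase that marks HIF alpha subunits for breakdown and is itself a HIF target. It was at 3.42, 4.39 and 4.15 RPKM in WT-host DKO-labelled libraries and at 10.7 and 8.07 RPKM in those from RIPmOVA hosts, a log2 difference of 1.13 (SE 0.14, limma adjusted p = 0.0040). In ctl it was at 3.73 and 3.86 RPKM in WT hosts and 6.51 and 6.36 RPKM in RIPmOVA hosts, a difference of 0.69 (SE 0.16, adjusted p = 0.069). The 2 host effects differed by 0.44 (SE 0.21, adjusted p = 0.54), so no difference between genotypes in this effect was shown. The call was lost under median-of-ratios scaling and without the first DKO-labelled library from a RIPmOVA host. Hif1a, an oxygen-regulated transcription factor subunit, passed the adjusted p but not the fold limit under the DKO label, at 0.65 (SE 0.13, adjusted p = 0.030), with 26.9 to 27.7 RPKM in WT hosts and 51.5 and 36.0 RPKM in RIPmOVA hosts. It is named after its values were seen. In ctl it was at 31.5 and 30.5 RPKM in WT hosts and 42.6 and 43.5 RPKM in RIPmOVA hosts, a difference of 0.47 (SE 0.14, adjusted p = 0.17), and the 2 host effects of Hif1a differed by 0.18 (SE 0.19, adjusted p = 0.75).

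The ends of the list were as follows. For the host effect in ctl, the highest were Slc16a3, a lactate exporter, at 0.98 (SE 0.36, adjusted p = 0.24) and the sugar transporter gene Slc2a8 at 0.91 (SE 0.30, adjusted p = 0.19), and the lowest were the oxygen-sensing hydroxylase gene Egln1 at -1.02 (SE 0.70, adjusted p = 0.57) and Pgk2, a phosphoglycerate kinase gene of the testis, at -0.96 (SE 0.47, adjusted p = 0.42). Egln1 was at 19.4 and 3.81 RPKM in the 2 WT-host ctl libraries. Slc16a3 was at 1.64 and 1.02 RPKM in RIPmOVA-host ctl libraries and at 0.283 to 0.659 RPKM in the others. It therefore passed the filter only through the group where it was high, and its p-values are no test of it. Under the DKO label, the lowest were Pdk1, a kinase that inhibits pyruvate dehydrogenase, at -0.76 (SE 0.20, adjusted p = 0.087) and Txnip, an inhibitor of glucose uptake, at -0.49 (SE 0.18, adjusted p = 0.20), and Arrdc4, a relative of Txnip, was second highest at 0.78 (SE 0.39, adjusted p = 0.32). Between genotypes in RIPmOVA hosts, Pgk2 at 1.34 (SE 0.47, adjusted p = 0.16) and Arrdc4 at 1.33 (SE 0.42, adjusted p = 0.13) were highest, and Slc16a3 at -0.85 (SE 0.36, adjusted p = 0.22) and the pyruvate dehydrogenase phosphatase gene Pdp1 at -0.76 (SE 0.22, adjusted p = 0.11) lowest. Pgk2 was at 1.23 to 1.94 RPKM in the 4 libraries with the highest sensory receptor sums (439 to 649 RPKM) and lowest, at 0.101 RPKM, in the library with the lowest sum (74.6 RPKM), and the part of that signal in the Pgk2 values was not tested.

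In WT hosts the genotype differences ran from Pdk1 at -0.45 (SE 0.20) and Pdp1 at -0.37 (SE 0.20) to Slc2a8 at 0.60 (SE 0.27) and the triose phosphate isomerase gene Tpi1 at 0.63 (SE 0.28), none called. In the interaction they ran from Slc2a8 at -0.92 (SE 0.40) and Pfkfb3, which makes the activator of phosphofructokinase, at -0.76 (SE 0.25) to Egln1 at 0.91 (SE 0.95) and Pgk2 at 1.54 (SE 0.64), none called. Pfkfb3 was at 3.45 and 2.62 RPKM in RIPmOVA-host ctl libraries and between 1.47 and 1.69 RPKM in the other 7.

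**Figure D4:**
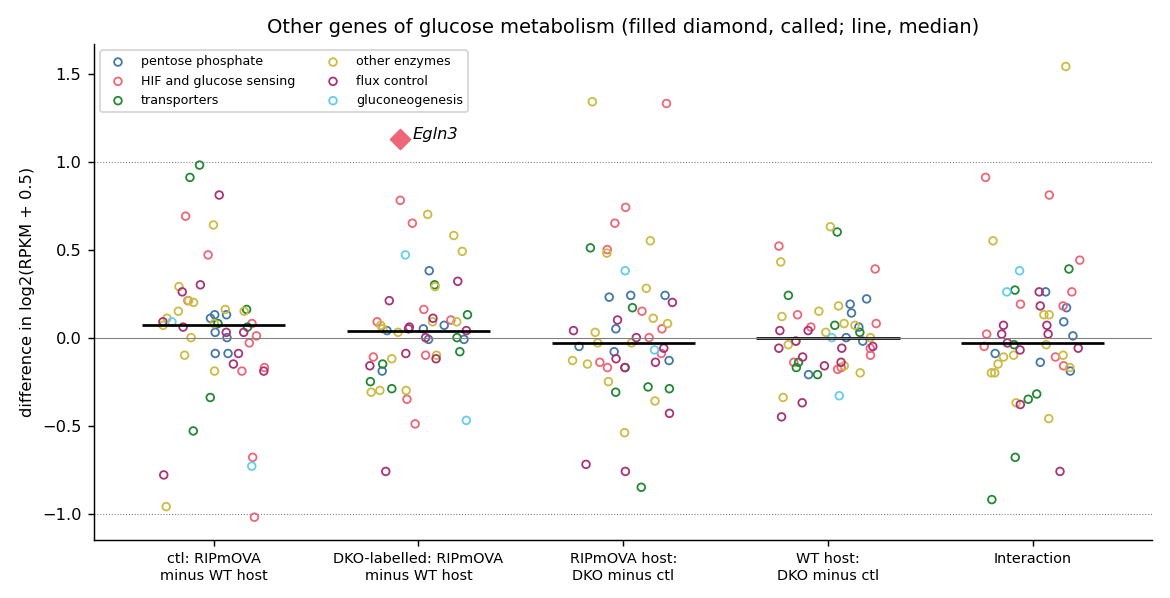
Differences in log2(RPKM + 0.5) (vertical axis) of the 51 other genes of glucose metabolism kept by the filter, by list (colour), in the 4 pairwise comparisons and the interaction, with dotted lines at the fold limit of 1. The 1 filled diamond is Egln3 at 1.13 in DKO-labelled libraries, and the medians (black lines) lie between -0.03 and 0.07.

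The genes most like Eno3 over the 9 libraries were Klhdc8b (r = 0.993), Dusp10 (r = 0.988), Rasl11b (r = 0.975), Adck5 (r = 0.970) and Lxn (r = 0.968), by Pearson's r of log2(RPKM + 0.5). The points share host, genotype and, in pairs, a chimera, so these values describe likeness and carry no test. Dusp10, a phosphatase of stress-activated kinases, was at 94.8 and 89.0 RPKM in RIPmOVA-host ctl libraries and averaged 58.5 ± 2.03 RPKM (SD, n = 2) in WT-host ctl libraries. Rasl11b, a small GTPase gene, was at 24.1 and 18.4 RPKM there and at 3.63 to 9.01 RPKM elsewhere. Klhdc8b was low, at 2.44 and 1.79 RPKM against 0.477 to 1.11 RPKM. Of the other members, Slc2a3 (r = 0.81), Eno1 (r = 0.68) and Pkm (r = 0.62) were most like Eno3, and Slc2a1 (r = -0.50) and Pfkp (r = -0.57) ran opposite to it.

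The genes next to Eno3 on the chromosome differed far less between groups. Pfn1 lies 2558 bases before Eno3 on the opposite strand, and was at 738 and 636 RPKM in RIPmOVA-host ctl libraries and at 565 to 703 RPKM in the others. Rnf167, 5781 bases before it, was at 63.2 and 66.2 RPKM against 51.8 to 76.8 RPKM. Spag7 lies 1258 bases after Eno3 on the opposite strand and was at 23.9 and 25.2 RPKM against 19.0 to 22.4 RPKM, and Camta2, 6950 bases after Eno3, was at 15.5 and 15.8 RPKM against 11.5 to 16.8 RPKM. None of the 4 was called in any of the 5 comparisons.

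**Figure D5:**
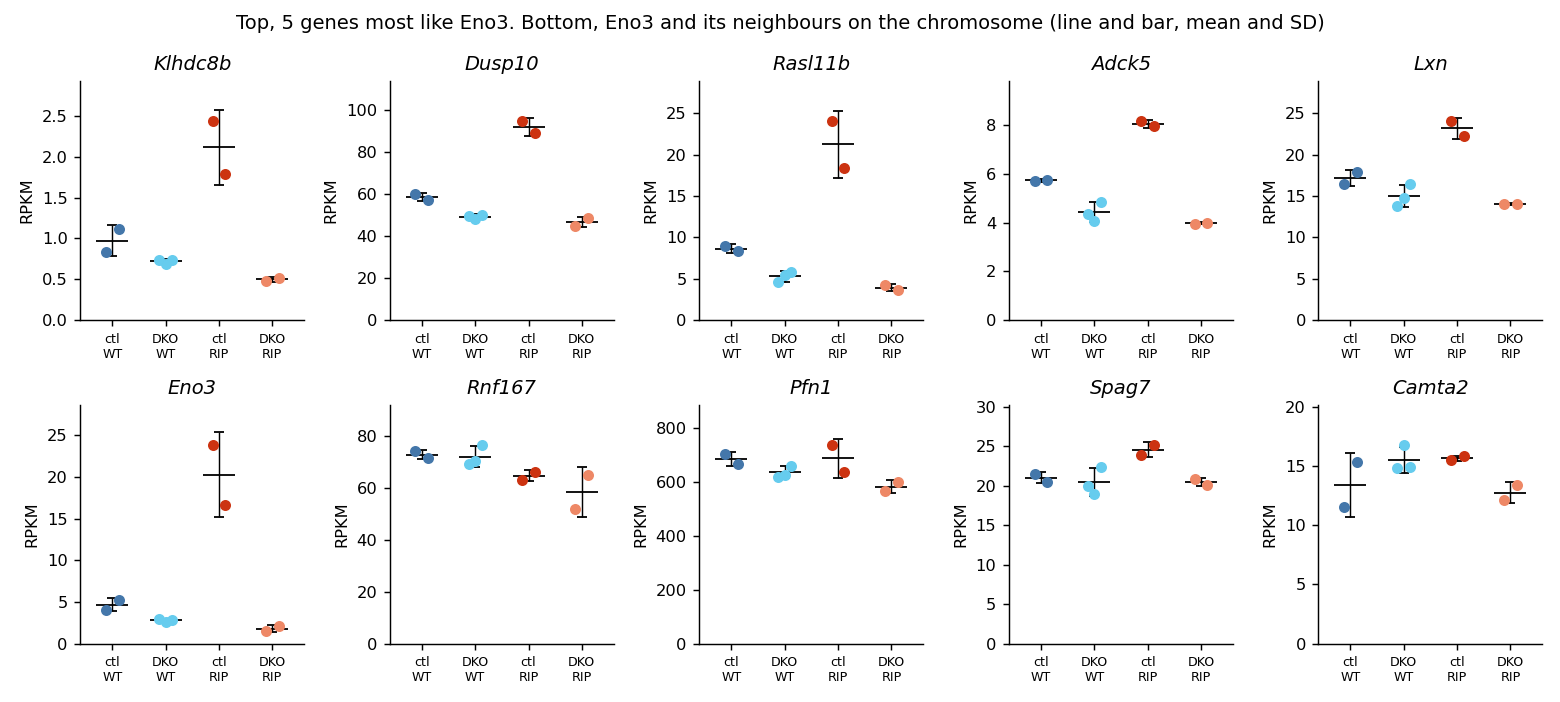
RPKM (vertical axes, from 0) of the 5 genes most like Eno3 (top) and of Eno3 with its 4 nearest neighbours in the table (bottom) in each library, with the mean and SD of each group. The top row repeats the high RIPmOVA-host ctl libraries, whereas Rnf167, Pfn1 and Camta2 overlap between these and the other libraries.

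Because Eno3 is a gene of skeletal muscle, muscle markers were read beside it. Over 18 markers the summed RPKM was 21.3 and 17.3 in RIPmOVA-host ctl libraries and 19.3 to 24.5 in the other libraries, so it was not higher where Eno3 was high. Of the 18, 6 reached 1 RPKM in 2 libraries. Ckm, the muscle creatine kinase gene, was at 0.0190 to 0.255 RPKM, and Myl1, Tnni2, Tnnc2, Myod1 and Myog were at 0 in at least 1 library each and at no more than 0.191 RPKM. Mylpf at 7.39 to 14.9 RPKM and Acta1 at 1.58 to 5.03 RPKM gave most of the sum.

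Summed markers of other cells differed between some groups or single libraries. The sum of 8 myeloid and dendritic markers was 21.8 and 11.9 RPKM in RIPmOVA-host ctl libraries and 3.23 to 11.1 RPKM elsewhere. Most of it was Lyz2, at 18.7 and 8.44 RPKM against 0.879 to 7.54 RPKM. Each other marker of that list overlapped between these and the other libraries, such as Adgre1 at 0.152 and 0.114 RPKM against 0.120 to 0.475 RPKM. The part of such cells in the Eno3 values was not tested. The sum of 8 thymic epithelial markers was 12.8 and 9.11 RPKM in RIPmOVA-host DKO-labelled libraries and 4.26 to 7.57 RPKM elsewhere. It was mostly Epcam, at 10.2 and 5.78 RPKM against 2.24 to 6.24 RPKM. Each of the 8 markers alone overlapped between these and the other libraries. The sum of 8 cycling markers was 4.43 and 2.63 RPKM in WT-host ctl libraries, 8.43 to 16.3 RPKM in DKO-labelled ones, 13.1 and 4.87 RPKM in RIPmOVA-host ctl libraries and 19.8 and 10.3 RPKM in DKO-labelled ones, and its part in the members' values was not tested. The first RIPmOVA-host ctl library, which had the highest Eno3, had the highest sum of 5 B cell markers, 10.5 RPKM against 2.72 to 7.45 RPKM. It also had the double-positive marker Ptcra at 2.50 RPKM against 0 to 0.372 RPKM. Erythroid sums were 21.0 and 25.3 RPKM in 2 WT-host libraries, 1 of each genotype, and 1.04 to 2.98 RPKM elsewhere. The part of these signals in the members' values was not tested. In bulk libraries, a larger share of cells with a transcript and more transcript per cell cannot be told apart.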

How the data were processed

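Per the study's methods, the authors made cDNA from sorted cells with a low-input SMART-seq kit, aligned paired reads with STAR to mm10 with GENCODE vM17, removed Picard duplicates and summed exonic reads per Entrez gene with GenomicRanges. Values were deposited by the authors as RPKM with 3 decimals. The use of strand and the versions of STAR and Picard are not given in the sources used here, so genes that overlap, lie antisense or have near copies are uncertain. Members with an overlapping gene in the annotation were Slc2a1, Slc2a3, Hk1, Hk2, Pfkp, Aldoa and Pkm. Reads per library were recovered from the steps between low values, and 100% of the low values came out whole within 0.1 read.

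The samples were 9 libraries in 4 groups by donor genotype and host. Genes at 1 RPKM or more in at least 2 libraries were kept (11569 of 24594). A group-means model over all 9 libraries of log2(RPKM + 0.5) was fitted in R 4.3.3 by limma 3.58.1, with an intensity trend, two-sided moderated tests and p-values adjusted after Benjamini and Hochberg over the kept genes. A call needed an adjusted p of 0.05 or less and an absolute log2 difference of at least 1. On simulated tables of 11569 genes with 200 changed for the host effect in OT-II control (ctl) libraries, 84.4% of the changed genes were called and 2.17% of calls were unchanged genes. All planted changes were larger than the fold limit and the simulated libraries shared no chimera. The 84.4% therefore does not apply to smaller differences. An exact permutation test on 2 against 2 libraries could not reach a threshold, so none was used. The replicates within a host came from separate chimeras. Same-numbered libraries of the 2 genotypes came from 1 chimera, so the numbers pair the genotypes by design. Deviations of paired libraries from their group means correlated at -0.24 to 0.01. With n = 2 in both RIPmOVA groups these deviations are mirror images, so the 2 pairs there hold 1 value (-0.08). The consensus correlation within chimeras from limma was 0.104, and the main fit did not use the pairing.

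The members and gene lists were chosen with earlier results of these data known. Named genes were the 10 members, the paralogs of their steps, the other pathway genes called or with the 2 highest or 2 lowest differences in each comparison, the 5 genes most like Eno3 and its 2 nearest neighbours on each side. Hif1a was added after its values were seen. Of the paralogs, Hk3, Hkdc1, Aldoc and Pklr were among those that did not pass the filter, and 1 listed gene is not reported here. The settings tried were other pseudocounts (0.1 and 1), filters (none, or 5 RPKM), scaling by median-of-ratios or by quantiles, a fit to the libraries compared, no trend, a sensory receptor covariate, a chimera block, calls on adjusted p alone and leaving out each library. Voom on recovered reads, leaving out 2 WT-host libraries with most sensory receptor signal, scaling factors from the kept genes only and Eno1b in the enolase sum were added after seeing the data. Coordinates are those of GENCODE vM21 on GRCm38, the build that mm10 names, and promoters those of RefSeq on GRCm38.p6. Python 3.11.15 with numpy 2.4.6, pandas 2.3.3 and matplotlib 3.10.9 was used.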

Additional observations from a re-analysis of the deposited data

Results flagged for a closer look

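Eno3 is given here for the difference between genotypes in its response to the RIPmOVA host, with a host effect under the DKO label minus that in ctl of -2.55 (SE 0.27) on the log2 scale. The OT-II control (ctl) libraries were higher in RIPmOVA hosts by 2.00 (SE 0.20), and the DKO-labelled libraries differed by -0.55 (SE 0.18). The members were chosen with this contrast known, so the value is a description and not a test of Eno3. In the fit over all genes it was called as reported but under 7 of 21 alternatives, and not with the chimera as a block, at -2.54 (SE 0.34). Groups of 2 or 3 libraries are too small for a check of single libraries that stand apart.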

How the results depend on the processing

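The 45 log2 differences of members moved by less than their residual SD under 919 of 981 alternatives. Of the called ones, all of Eno3, 0 changed sign. Many alternatives could not move a pairwise difference, such as no intensity trend, another filter or leaving out a library of a group not compared. Small uncalled differences did change sign, as for Aldoa in the host effect under the DKO label (-0.17 to 0.10). Eno3 differed between genotypes in RIPmOVA hosts by -3.49 to -2.93 and was called under 22 of 22 alternatives. The ctl host effect of Eno3 was 1.74 to 2.25 and called under 21 of 22, with 0 members called in the fit to the libraries compared. In the interaction 0 members were called with a pseudocount of 0.1, a filter at 5 RPKM, no intensity trend, the sensory receptor covariate, the chimera as a replicate block, voom on recovered reads and without the 2 WT-host libraries with most sensory receptor signal; the cause was not tested. With each library left out in turn, 0 to 1 members were called in the interaction, 1 in each for the ctl host effect and the genotype effect in RIPmOVA hosts, and 0 in the other 2 comparisons. On adjusted p alone, 1 member (Eno1) passed for the host effect under the DKO label and 2 members (Eno1 and Eno3) between genotypes in RIPmOVA hosts.

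Of the other pathway genes, 1 was called for the host effect under the DKO label, 0 under median-of-ratios scaling, 2 by voom, 2 on adjusted p alone and 0 to 2 with a library left out (0 without the first and 2 without the second DKO-labelled library from RIPmOVA hosts). Between genotypes in RIPmOVA hosts 2 were called after quantile normalization (Pfkfb3 and Slc16a3), 1 (Arrdc4) in the fit to the libraries compared, 1 (Arrdc4) without the 2 libraries with most sensory receptor signal and 0 to 1 with a library left out (1 without either WT-host ctl library). For the ctl host effect it was 0 to 1 with a library left out (Slc2a8 without the second WT-host ctl library), and 0 in the other 2 comparisons. The replicate block changed no other call among listed genes. Eno2, called by voom, and Slc16a3 passed the filter on low values only through the group where each was high, so their calls are no test of them.

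The Eno3 share of enolase RPKM with a library left out was 2.53% to 3.43% in ctl and 1.82% to 2.00% in DKO-labelled libraries from WT hosts, and 9.68% to 12.4% in ctl and 1.41% to 1.89% in DKO-labelled libraries from RIPmOVA hosts. With Eno1b in the sum it was 1.61% in DKO-labelled libraries from WT hosts. Over all alternatives, genes called in the table were 31 to 296 (142 as reported) and 90 to 553 (194) for the host effects in ctl and under the DKO label, 20 to 555 (124) and 2 to 102 (7) between genotypes in RIPmOVA and WT hosts, and 0 to 165 (2) in the interaction. Median-of-ratios factors from the kept genes only, the version computed first, moved the median of all genes by at most 0.01 from 0, against -0.19 for factors from all genes above 0 in every library, and changed no count of members or other pathway genes called. The choice between the 2 versions was made after values were seen. With 2 or 3 libraries a group and Eno3 at 95 to 379 reads in 7 libraries, small differences at its low levels may be missed. How small a difference could be detected was not measured.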
